A study of Homo sapiens with 4 samples.

Results

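Chromatin accessibility was examined at 7 genes of the interferon-linked ADP-ribosylation system, PARP9, DTX3L, PARP14, PARP15, PARP10, PARP12 and ZC3HAV1. All ATAC-seq peaks that overlapped the GENCODE body of one of these genes, or the 10 kb upstream of it, were taken by position, whatever their values. The genes themselves were chosen with earlier results of these data known. WT cells had 20 such peaks untreated and 27 with IFN-γ, FLI1-KO cells had 20 and 18, and together they merged into 29 of the 93211 regions found in any of the 4 lists.

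The cells were HK1, an established human nasopharyngeal carcinoma line. WT cells and cells carrying a CRISPR guide against the ETS transcription factor gene FLI1 (sgFLI1, FLI1-KO) were kept as untreated controls or given the cytokine interferon-γ (IFN-γ) for 24 h, which made 4 groups with 1 deposited peak list each. A list is called a library here, although the sources used do not say whether it came from 1 preparation or from pooled replicates. The labels do not say whether the FLI1-KO cells were 1 clone or a pool, nor which guide was used. As each group had a single library, replicate spread is unknown and groups were compared without a test. All intervals are 95% counting intervals within libraries, and they cover counting error only. Differences between groups cannot be told apart from differences between single preparations.

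Poly(ADP-ribose) polymerase (PARP) family enzymes move ADP-ribose from NAD+ onto proteins or nucleic acids. Several family members are induced by interferons and act in antiviral defence. IFN-γ signals through the kinases JAK1 and JAK2 and acts on genes through gamma-activated sites (GAS). Interferon regulatory factors (IRFs), some of them induced by interferons, bind paired GAAA elements. An open regulatory element is cut more often by the transposase used in ATAC-seq, and the number of tags stacked over the top of a peak, the summit pileup, measures this.

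PARP9 and DTX3L lie head to head on chromosome 3. PARP9 (ENSG00000138496.17, GRCh38 chr3:122527924-122564577, minus strand) encodes the partner of DTX3L (ENSG00000163840.10, chr3:122564338-122575203, plus strand), a deltex-family ubiquitin E3 ligase. Downstream of DTX3L follow PARP15 (ENSG00000173200.13, chr3:122577628-122639047) and PARP14 (ENSG00000173193.15, chr3:122680839-122730840), both on the plus strand and both encoding macrodomain-bearing mono-ADP-ribosyltransferases. PARP10 is a mono-ADP-ribosyltransferase gene on another chromosome. PARP12 (ENSG00000059378.13, chr7:140023749-140062951) and ZC3HAV1 (ENSG00000105939.14, chr7:139043515-139132122), both on the minus strand, encode CCCH zinc-finger members of the family. The ZC3HAV1 product, also called ZAP or PARP13, binds CpG-rich viral RNA and has no ADP-ribosyltransferase activity. The windows of PARP9, DTX3L and PARP15 overlapped and shared peaks. The canonical starts of 3 other protein-coding genes lay inside a window, those of GRINA and SPATC1 in that of PARP10 and that of TTC26 in that of ZC3HAV1, so a peak there cannot be assigned to one gene.

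The promoter sequences are shown first, because interferon-type elements lay close to the starts. Motifs were searched on both strands as GAAA, any 2 bases and GAAA again (IRF), TTCNNNGAA (GAS), CCGGAAGT (ETS, the kind of site FLI1 binds) and TGANTCA (AP1). The first 3 lines give the 150 bases before the start from the RefSeq promoter table (GRCh38.p14), read in the direction of transcription. The fourth gives the 47 bases from the PARP9 start to just past the DTX3L start on the plus strand. Capitals mark IRF and GAS matches.
PARP14: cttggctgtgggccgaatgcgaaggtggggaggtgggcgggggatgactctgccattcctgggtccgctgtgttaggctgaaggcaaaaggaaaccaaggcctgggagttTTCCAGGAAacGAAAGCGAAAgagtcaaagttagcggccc
PARP12: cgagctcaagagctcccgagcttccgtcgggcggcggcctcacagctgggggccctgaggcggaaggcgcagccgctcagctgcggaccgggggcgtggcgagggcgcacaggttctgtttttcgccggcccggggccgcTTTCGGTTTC
ZC3HAV1: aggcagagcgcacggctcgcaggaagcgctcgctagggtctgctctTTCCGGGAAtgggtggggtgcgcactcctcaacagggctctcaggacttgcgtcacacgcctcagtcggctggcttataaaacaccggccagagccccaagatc
PARP9-DTX3L: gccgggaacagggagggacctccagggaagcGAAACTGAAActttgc

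In PARP14 a GAS match ended at -32 bp and an IRF match at -20 bp from the canonical transcription start site (TSS). In PARP12 the IRF match, on the opposite strand, ended at -1 bp. ZC3HAV1 had a GAS match ending at -96 bp and no IRF match in these bases. Between PARP9 and DTX3L an IRF match lay across the DTX3L start. Of the 35116 RefSeq promoters, 1.74% held the IRF letters and 3.66% the GAS letters in the same 150 bases. No RefSeq promoter entry was matched for PARP10, while the other 6 genes had at least 1. PARP15 had 2 entries, with no IRF match in either and a GAS match in 1. A match is a run of letters and not a measured binding site.

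Of the 29 regions at these genes, 7 (24.1%, 12.2 to 42.1%) had the IRF letters within 100 bp of a summit in at least 1 library, against 5.58% of all 93211 regions. These 7 were the promoter regions of PARP9 and DTX3L (1 region for both), PARP14, PARP10, PARP12 and ZC3HAV1, a region in intron 2 of PARP15, and a region at -2314 bp from ZC3HAV1. At ZC3HAV1 the promoter match came from the summits of WT and sgFLI1-IFN-γ, downstream of the start. A region listed in more libraries has more summits and so more chances of a match. The GAS letters were near 3 regions (10.3%, 3.58 to 26.4%), against 8.91% of all. The AP1 letters were near 7 (24.1%, 12.2 to 42.1%), against 27.2% of all. The ETS letters were near 0 of 29, against 1.34% of all.

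The first comparison asked what IFN-γ changed in WT cells at the promoters. After division by the tag density of its library (tags per kb), the shared promoter of PARP9 and DTX3L, that of PARP14 and that of ZC3HAV1 were 1.46 to 1.80 times as high in WT-IFN-γ as in WT, with intervals above 1. Among all regions shared by that pair, these ratios lay at percentiles 97.1 (PARP9 and DTX3L), 95.2 (PARP14) and 93.1 (ZC3HAV1). The PARP10 promoter had a peak in WT-IFN-γ and none in WT. The PARP12 promoter differed by less than its counting interval. PARP15 had no peak at its start in any list, and the nearest summit lay 4333 bp away.

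At the shared promoter of PARP9 and DTX3L (chr3:122563820-122564973, over both starts), the summit pileup of WT cells was 83 tags (66.1 to 103) untreated and 164 tags (140 to 191) with IFN-γ. FLI1-KO cells had 96 tags (77.8 to 117) and 105 tags (85.9 to 127). After normalisation the values were 10.3 (8.22 to 12.8) and 18.6 (15.8 to 21.6) in WT cells and 13.8 (11.2 to 16.9) and 15.3 (12.5 to 18.5) in FLI1-KO cells. The WT libraries were apart from each other, and both FLI1-KO libraries lay between them with intervals that overlapped both. The normalised ratio of WT-IFN-γ to WT was 1.80 (1.37 to 2.37), at percentile 97.1 of all regions shared by that pair. The ratio of sgFLI1-IFN-γ to sgFLI1 was 1.11 (0.830 to 1.47). The summit lay 22 or 23 bp inside DTX3L in 3 libraries and at 79 bp in sgFLI1, in exon 1 and beside the IRF match printed above. In a bulk library, more cells with an open element and more cutting per cell cannot be told apart.

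At PARP14 the promoter region (chr3:122679020-122681186) had 84 tags (67.0 to 104) in untreated and 146 tags (123 to 172) in treated WT cells, and 98 tags (79.6 to 119) and 83 tags (66.1 to 103) in FLI1-KO cells. After normalisation these were 10.4 (8.33 to 12.9) and 16.5 (13.9 to 19.4) in WT and 14.1 (11.5 to 17.2) and 12.1 (9.64 to 14.999) in FLI1-KO cells. The treated WT library was the highest and clear of untreated WT, but its interval overlapped those of both FLI1-KO libraries. Its ratio to WT was 1.58 (1.20 to 2.09) and that of sgFLI1-IFN-γ to sgFLI1 was 0.856 (0.631 to 1.16). The top of the peak also moved. It lay at -78 bp in WT-IFN-γ, within 100 bp of the GAS and IRF matches of PARP14, and at -1479 or -1480 bp in the other 3 libraries. The ratio therefore compares the highest points of 1 wide region and not the same bases.

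At ZC3HAV1 the promoter region (chr7:139107877-139110034) went from 97 tags (78.7 to 118) to 156 tags (132 to 182) with IFN-γ in WT cells. In FLI1-KO cells it had 117 tags (96.8 to 140) untreated and 97 tags (78.7 to 118) treated. Normalised, untreated FLI1-KO cells (16.9, 13.96 to 20.2) were close to treated WT cells (17.7, 14.99 to 20.6). The ratio was 1.46 (1.13 to 1.91) with IFN-γ in WT and 0.838 (0.633 to 1.11) in FLI1-KO cells. Here too the summit of the treated WT library was the nearest to the start, at -10 bp. In untreated WT cells it lay 374 bp downstream of the start, and in the FLI1-KO cells 90 bp (untreated) and 284 bp (treated) downstream.

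PARP10 (ENSG00000178685.14) lies on the minus strand at chr8:143977153-144012772. In WT cells the region over its start (chr8:143985986-143986708) had no peak untreated and 104 tags (85.0 to 126) with IFN-γ, and in FLI1-KO cells it had 45 tags (32.8 to 60.2) and 55 tags (41.4 to 71.6). At the depth of WT the same signal would have been 104 tags over a background of 18.9, where 34 tags would have been enough for listing. A signal this strong thus exceeded the limit of the WT list, the least significant p listed there. If the lists had also been filtered for reproducibility between replicates, which is not stated for the deposited files, a peak past this limit could still be missing from a list. The ratio of sgFLI1-IFN-γ to sgFLI1 was 1.24 (0.818 to 1.87). Between the 2 treated libraries, sgFLI1-IFN-γ to WT-IFN-γ was 0.681 (0.482 to 0.954), below 1 by more than counting error. That value lay at percentile 11.8 of all regions shared by the pair, so it was not unusual there.

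The PARP12 promoter (chr7:140062271-140063322) had 89 tags (71.5 to 110) untreated and 106 tags (86.8 to 128) treated in WT cells, and 77 tags (60.8 to 96.2) and 86 tags (68.8 to 106) in FLI1-KO cells. These overlap in every pair of libraries. The ratios were 1.08 (0.810 to 1.45) in WT and 1.13 (0.820 to 1.56) in FLI1-KO cells. The WT ratio was the smallest of the 4 promoter regions listed in both WT libraries.

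**Figure D1:**
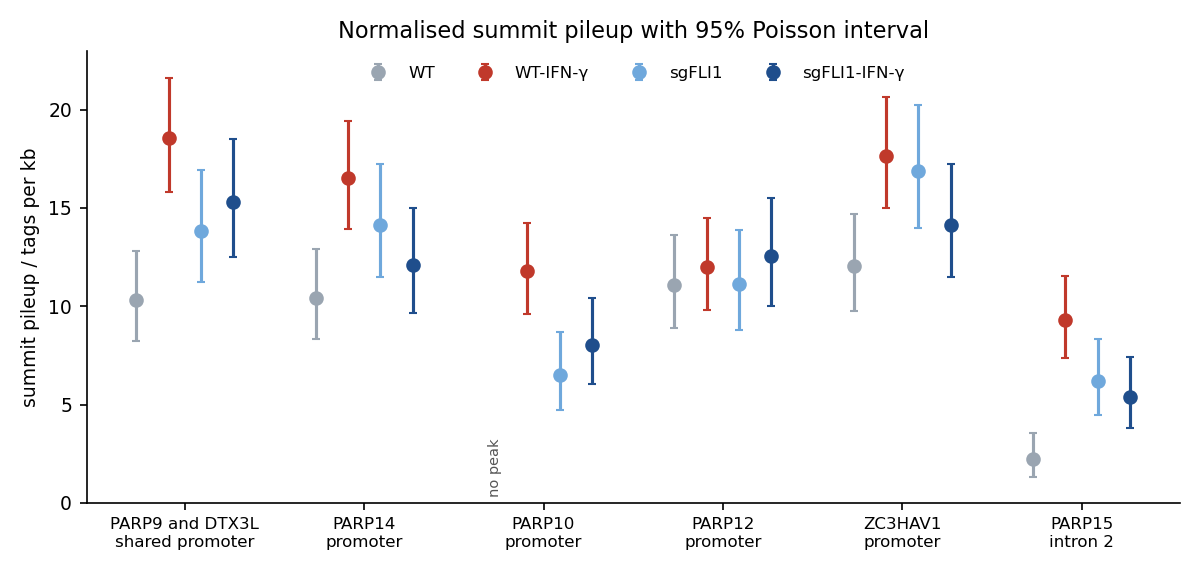
Summit pileup divided by tags per kb of its library (vertical axis, no unit) at the 5 promoter regions and at the PARP15 intron 2 region, by library, with bars for the 95% exact Poisson interval. WT-IFN-γ was above WT by more than counting error at PARP9 and DTX3L, PARP14, ZC3HAV1 and PARP15, PARP10 had no WT peak, and the 4 PARP12 values overlap.

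These ratios were set beside those of all regions of the same pair. Over the 48949 regions that the 2 WT libraries shared one to one, the median ratio was 0.952 (-0.07 on the log2 scale). In the FLI1-KO pair it was 0.909 over 47353 regions (-0.14 on the log2 scale). The 19 shared regions at the 7 genes had a median of 1.12 in WT, and the 17 of the FLI1-KO pair had 0.954. In WT 4 of 19 were at least 1.5-fold higher and 0 at least 1.5-fold lower, against 6.13% higher and 7.24% lower among all shared regions. In FLI1-KO cells 0 of 17 were past 1.5-fold in either direction, against 2.46% higher and 6.91% lower among all. The 4 higher regions were the PARP9 and DTX3L promoter, the PARP14 promoter, the PARP15 intron 2 region and a weak region in intron 7 of ZC3HAV1.

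PARP15 was the gene without a promoter peak, and its most variable region lay in intron 2 (chr3:122609733-122610800), 32548 bp from its start. In WT cells it had 18 tags (10.7 to 28.4) untreated and 82 tags (65.2 to 102) with IFN-γ, and in FLI1-KO cells 43 tags (31.1 to 57.9) and 37 tags (26.1 to 51.0). Untreated WT was the low library and treated WT the high one, with both FLI1-KO libraries between them. The ratio of 4.15 (2.47 to 7.34) in WT lay at percentile 99.9 of its pair. In FLI1-KO cells the ratio was 0.870 (0.545 to 1.38). The bases around the WT-IFN-γ summit are printed because this was the largest ratio at any of the 7 genes, and the region was chosen for printing after its values were seen. They lie at chr3:122610098-122610298 (GRCh38, plus strand), with the IRF match in capitals.
PARP15 intron 2: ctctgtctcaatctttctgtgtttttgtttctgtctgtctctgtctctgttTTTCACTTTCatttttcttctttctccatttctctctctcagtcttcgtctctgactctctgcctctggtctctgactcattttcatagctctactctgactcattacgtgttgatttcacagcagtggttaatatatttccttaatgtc

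Besides the IRF match, which here reads on the minus strand, these bases held 2 AP1 matches with the letters TGACTCA. The AP1 letters were within 100 bp of the summit in all 4 libraries and the IRF letters in all but WT, whose summit lay 32628 bp from the start. The other PARP15 region with its own signal, in intron 9, had 22 and 29 tags in untreated and treated WT cells and 20 and 25 tags in FLI1-KO cells. Its ratios of 1.20 (0.666 to 2.19) in WT and 1.26 (0.674 to 2.40) in FLI1-KO cells were within counting error.

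**Figure D2:**
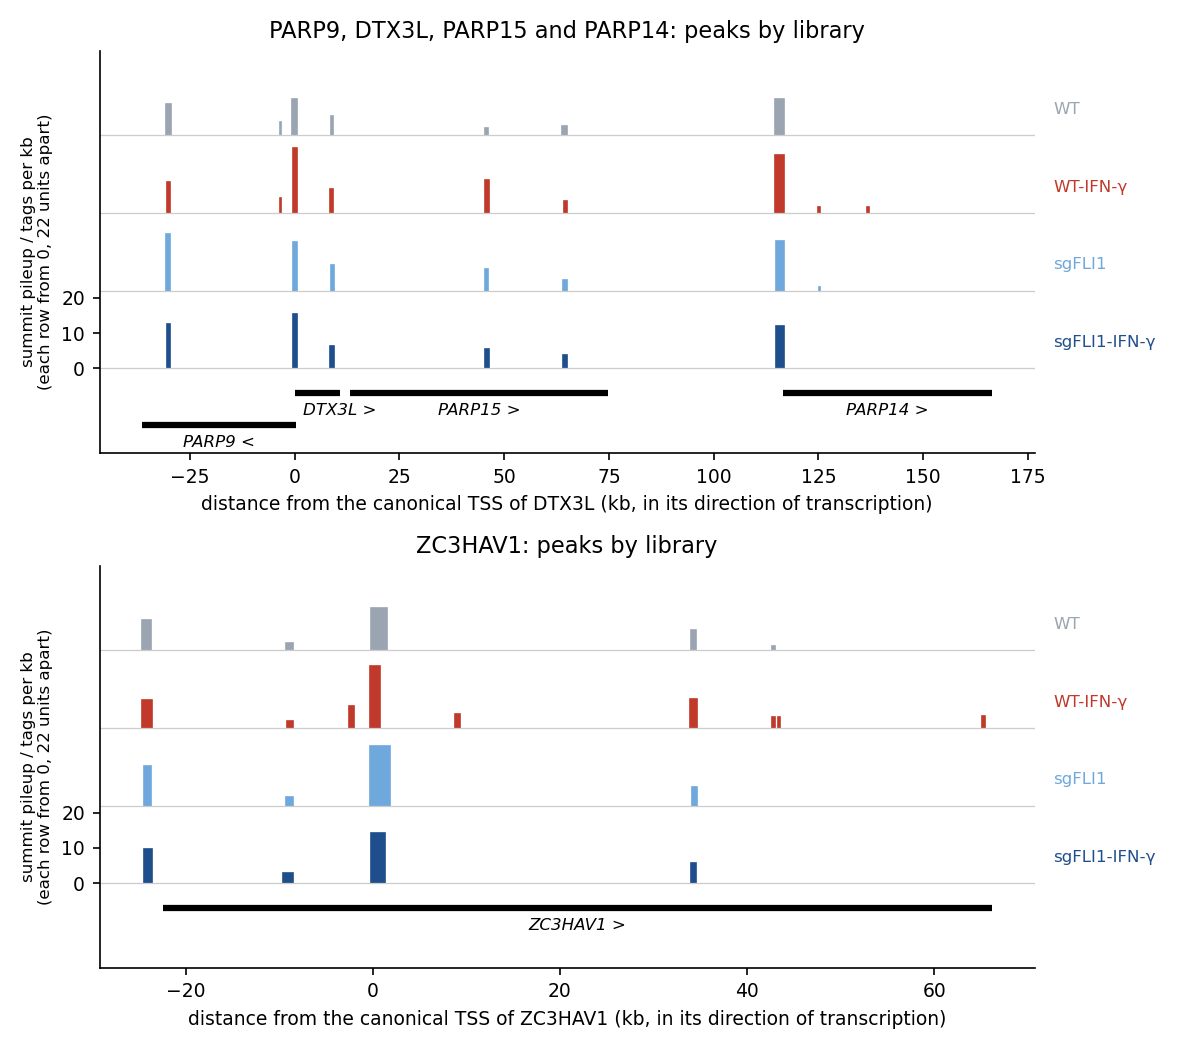
Peaks of each library drawn to scale along the PARP9, DTX3L, PARP15 and PARP14 cluster (upper panel) and along ZC3HAV1 (lower panel), with distance from the DTX3L or ZC3HAV1 start in kb and bar height as summit pileup divided by tags per kb; black bars are genes, with arrowheads for direction. The PARP15 intron 2 bar near 46 kb is short in WT and tall in WT-IFN-γ, and ZC3HAV1 has 9 bars in WT-IFN-γ against 4 or 5 in the others.

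The second comparison asked where peaks appeared or disappeared. A peak of a treated list that shared no base with a peak of the untreated list of the same genotype is called gained, and the reverse lost. In WT cells 8 of 27 peaks at the 7 genes were gained (29.6%, 15.9 to 48.5%), against 25.2% of all WT-IFN-γ peaks, so the share as such was near the background. Of the WT peaks, 1 of 20 was lost (5.00%, 0.888 to 23.6%), against 15.9% of all. In FLI1-KO cells 1 of 18 was gained (5.56%, 0.988 to 25.8%), against 18.0% of all, and 3 of 20 were lost (15%, 5.24 to 36.04%), against 22.2% of all. The gained regions in WT lay at 3 genes, ZC3HAV1 with 4, PARP14 with 2 and PARP10 with 2. Over all 20007 protein-coding genes 32.0% had at least 1 region gained in WT in a window built the same way, and 38.1% among genes with windows of 45 to 110 kb. In FLI1-KO cells the gained region lay at PARP10, against 22.9% of all genes with one.

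**Figure D3:**
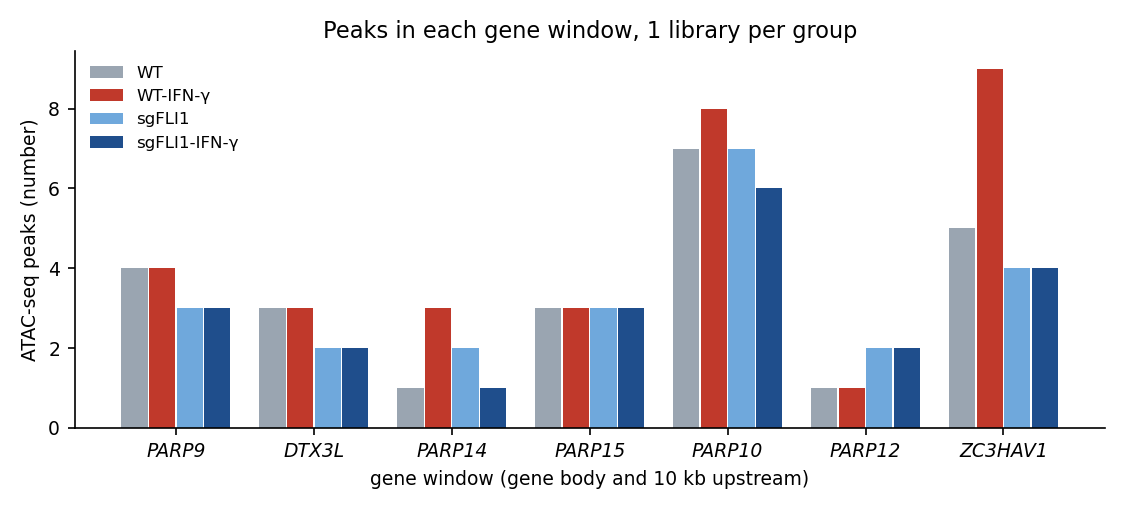
Number of ATAC-seq peaks in the window of each gene (gene body and 10 kb upstream) in the 4 libraries, 1 bar per library. ZC3HAV1 goes from 5 to 9 in WT and stays at 4 in FLI1-KO cells, PARP14 goes from 1 to 3 and from 2 to 1, and PARP9, DTX3L, PARP15 and PARP12 do not change with IFN-γ in either genotype.

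ZC3HAV1 held 4 regions that were in WT-IFN-γ and in no other list. The strongest had its summit at -2314 bp from the start (chr7:139111729-139112251), with 54 tags (40.6 to 70.5) over a local background of 21.8. At the depth of sgFLI1-IFN-γ this would have been 42.9 tags where 32 were needed, and at that of WT 54.1 where 38 were needed. The other 3 lay in exon 13 (31 tags, 21.1 to 44.0), intron 7 (28 tags, 18.6 to 40.5) and intron 1 (34 tags, 23.5 to 47.5). A further region of intron 7, next to the gained one, had 9 tags in WT (4.12 to 17.1) and 28 in WT-IFN-γ (18.6 to 40.5) and no peak in either FLI1-KO list, with a ratio in WT of 2.83 (1.299 to 6.82). Both intron 7 regions were close to the limit at the depth of sgFLI1-IFN-γ, with 22.3 tags where 21 were needed. The −log10 q of the 4 regions was 6.56 at -2314 bp, 4.54 in exon 13, 2.68 in intron 7 and 9.33 in intron 1. The treated WT library thus had peaks along the ZC3HAV1 body that the other lists lacked. Such peaks were common elsewhere too. Of all WT-IFN-γ peaks 25.2% were gained, and 74.1% of the gained ones had no sgFLI1-IFN-γ peak. The share of all regions listed in WT-IFN-γ alone was not counted.

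The region upstream of the canonical ZC3HAV1 start (chr7:139109720) is printed because it was the gained region with the most IRF matches. It lies inside the GENCODE gene body, which begins further upstream than the canonical start. The bases are chr7:139111934-139112134 (GRCh38, plus strand), with IRF matches in capitals.
ZC3HAV1 upstream: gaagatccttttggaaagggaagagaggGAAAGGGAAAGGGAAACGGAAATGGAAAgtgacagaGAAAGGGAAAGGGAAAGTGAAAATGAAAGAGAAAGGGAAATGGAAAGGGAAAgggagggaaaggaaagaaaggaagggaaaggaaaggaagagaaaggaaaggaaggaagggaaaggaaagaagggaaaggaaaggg

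The 12 IRF matches overlapped one another in 2 runs of GAAA units within a purine-rich repeat, so they are not 12 separate elements. Of the 8 gained regions, this one and the PARP10 promoter had the IRF letters (25%, 7.15 to 59.1%), against 13.4% of all regions gained in WT. The 2 gained regions of PARP14 had none. They lay in intron 3 (14 tags in WT-IFN-γ, 7.65 to 23.5, and 8 tags in sgFLI1) and in exon 6 (15 tags, 8.40 to 24.7, in WT-IFN-γ alone).

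Of the 8 regions gained in WT, 7 had no peak in sgFLI1-IFN-γ (87.5%, 52.9 to 97.8%), against 74.1% of all WT-gained regions. The exception was the PARP10 promoter. By its pileup alone, each of the 7 would have passed the listing limit at the depth of sgFLI1-IFN-γ, the intron 7 region of ZC3HAV1 only just. Margins were also small in exon 13 of ZC3HAV1 (24.6 tags, 20 needed) and at PARP14 in intron 3 (11.1, 8 needed) and exon 6 (11.9, 9 needed). The counting intervals were not carried into this check, so within counting error a region near the limit could have fallen below it. Of all 27 WT-IFN-γ peaks at these genes 10 had no sgFLI1-IFN-γ peak (37.0%, 21.5 to 55.8%), against 29.0% of all. In the other direction 1 of 18 sgFLI1-IFN-γ peaks had no WT-IFN-γ peak (5.56%, 0.988 to 25.8%), against 19.8% of all.

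Around PARP10 the remaining regions were mostly even. The GENCODE body of PARP10 also begins upstream of the canonical start (chr8:143986460), so some regions at negative distances lie inside it. The second region gained in WT lay at -28339 bp from the PARP10 start, with 25 tags in WT-IFN-γ (16.2 to 36.9) and 27 in sgFLI1 (17.8 to 39.3), and was absent from the other 2 lists. A region at -18802 bp was in WT alone (21 tags). In FLI1-KO cells a region in intron 9 was gained (22 tags, 13.8 to 33.3). It was also listed in WT with 37 tags and in WT-IFN-γ with 44, and was missing only from sgFLI1. The 3 regions lost in FLI1-KO cells were the one at -28339 bp, one at -9638 bp from PARP10 (17 tags in sgFLI1, 9.90 to 27.2) and the intron 3 region of PARP14. The strongest region of the window (chr8:143976151-143977379) lay at the 3′ end of PARP10, with its WT summit in exon 11. It ran past the end of the gene body at chr8:143977153, so it cannot be assigned to PARP10 alone. It had 146 and 149 tags in WT cells (untreated, treated) and 122 and 120 tags in FLI1-KO cells. The ratios for IFN-γ were 0.929 (0.734 to 1.18) in WT and 0.994 (0.766 to 1.29) in FLI1-KO cells. The local background of this region, at 14.4 to 15.4 times that of its library, was the highest at these genes.

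Besides summits, the local background under the peaks moved. MACS takes this background from a wide window around the summit, which also holds tags of the peak and of its neighbours, so regions close together share much of it. It was at least 1.5-fold higher in WT-IFN-γ than in WT, after division by the background of each library, at 9 of the 19 shared regions of the 7 genes, against 3.15% of all shared regions. In FLI1-KO cells it was so at 0 of 17, against 0.129% of all. The highest FLI1-KO value, 1.45 in intron 6 of ZC3HAV1, was just under this limit and at percentile 99.8 of its pair. The 9 WT regions belonged to PARP9 and DTX3L, PARP15, PARP14, ZC3HAV1 and PARP10. At the shared promoter of PARP9 and DTX3L the local background went from 4.09 to 7.02 times that of its library with IFN-γ in WT cells and from 4.99 to 5.08 times in FLI1-KO cells. At the PARP14 promoter it went from 5.34 to 10.1 times in WT and from 6.90 to 7.35 times in FLI1-KO cells. At the ZC3HAV1 promoter it went from 7.09 to 10.7 times in WT and from 8.26 to 8.66 times in FLI1-KO cells. In intron 6 of ZC3HAV1, 34456 bp from the start, these multiples were 1.66 and 5.18 in WT and 1.93 and 2.79 in FLI1-KO cells, while the summit ratio there was 1.42 (0.971 to 2.11) in WT and 1.07 (0.662 to 1.72) in FLI1-KO cells. The intron 7 region went from 1.00 in WT to 5.53 in WT-IFN-γ. In WT cells the higher background at ZC3HAV1 thus reached from the promoter to intron 7. The PARP12 promoter, at 4.50 and 4.64 in the WT libraries, and the region near the TTC26 start, at 2.67 and 2.58, did not show this.

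**Figure D4:**
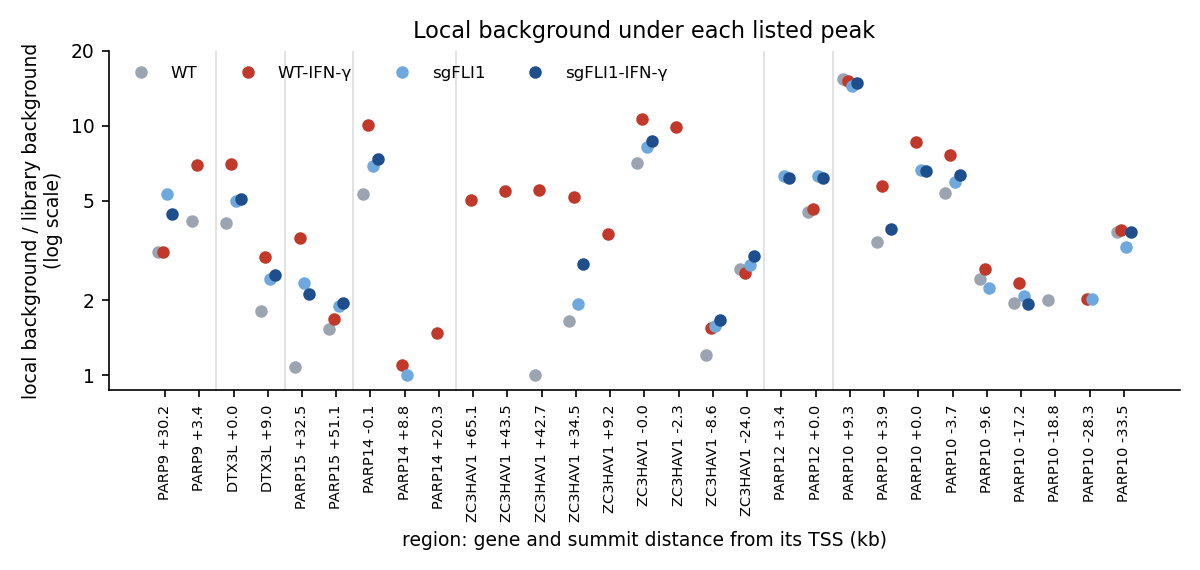
Local background under each listed peak divided by the background of its library (vertical axis, log scale), for the 29 regions in order along each gene, with the summit distance from the gene's start in kb below. At PARP9, DTX3L, PARP15, PARP14 and ZC3HAV1 many WT-IFN-γ points lie above the WT point, and the ratios of the 2 FLI1-KO points run from 0.828 to 1.45, the highest in intron 6 of ZC3HAV1.

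**Figure D5:**
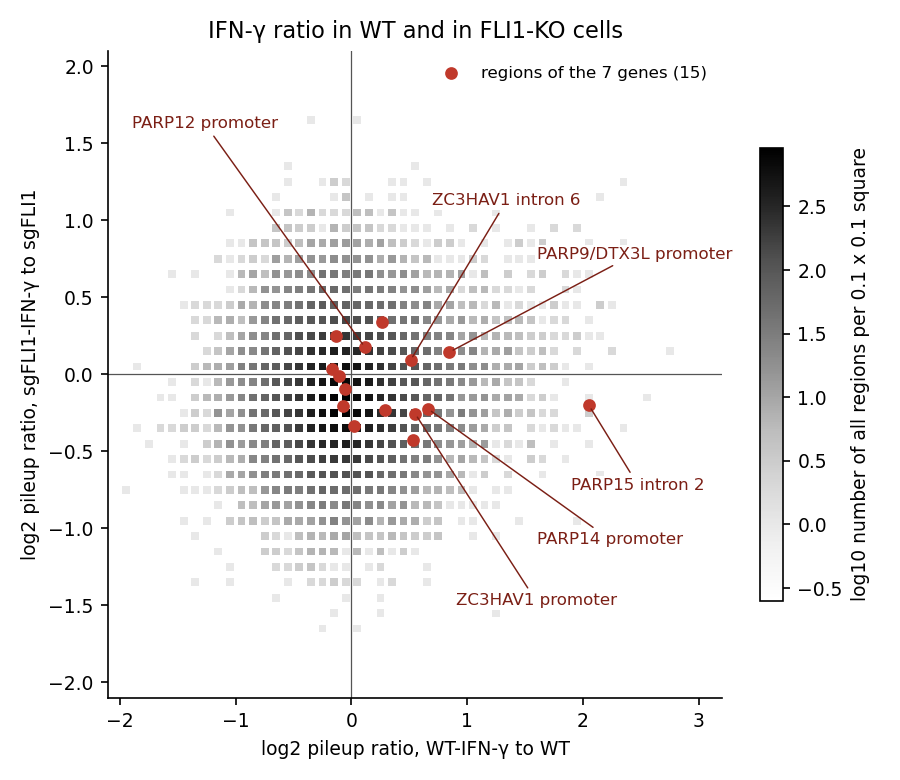
Log2 ratio of treated to untreated normalised pileup in WT (horizontal) and FLI1-KO cells (vertical) for the 15 regions at the 7 genes that are listed one to one in all 4 libraries (points), over all 39298 such regions (grey squares, shade by log10 number). The PARP15 intron 2 region lies at 2.05 on the WT axis and -0.20 on the FLI1-KO axis, and the 15 points lie between -0.43 and 0.34 on the FLI1-KO axis.

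The third comparison set FLI1-KO cells beside WT cells. It shares libraries with the comparisons above, so its values are given only side by side. Without IFN-γ, the ratio of sgFLI1 to WT was 1.40 (1.06 to 1.85) at the ZC3HAV1 promoter, at percentile 83.2 of all regions shared by that pair. It was 1.35 (1.00 to 1.83) at PARP14 and 1.34 (0.990 to 1.82) at PARP9 and DTX3L, where the interval came down to about 1, and 1.00 (0.730 to 1.38) at PARP12. With IFN-γ, sgFLI1-IFN-γ was below WT-IFN-γ by more than counting error at PARP14 (0.732, 0.553 to 0.965) and PARP10 (0.681, 0.482 to 0.954). These 2 ratios lay at percentiles 16.1 and 11.8 of all regions shared by that pair, so they were not unusual there. At ZC3HAV1 (0.801, 0.615 to 1.04) and PARP9 and DTX3L (0.825, 0.639 to 1.06) the intervals reached 1, and at PARP12 the ratio was 1.05 (0.777 to 1.40). The PARP15 intron 2 region was at 2.77 (1.57 to 5.11) untreated and 0.581 (0.383 to 0.867) treated. Of the 16 regions shared by the untreated libraries 2 were at least 1.5-fold higher in sgFLI1 and 1 lower, against 12.9% and 8.41% of all. Of the 17 shared by the treated ones 1 was higher and 2 were lower in sgFLI1-IFN-γ, against 10.5% and 10.7% of all. These shares were near the background.

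Some regions differed by genotype in both the untreated and the treated libraries. How common this is among all regions was not counted, so these regions are only described. In intron 10 of PARP9, 30214 bp from its start, sgFLI1 had 111 tags (91.3 to 134) and WT 71 (55.5 to 89.6), a ratio of 1.81 (1.33 to 2.48). There sgFLI1-IFN-γ had 87 (69.7 to 107) against 79 in WT-IFN-γ (62.5 to 98.5), a ratio of 1.42 (1.03 to 1.95). These ratios lay at percentiles 93.9 (untreated) and 87.0 (treated) of all regions shared by their pairs. A region in intron 1 of PARP12 was listed in both FLI1-KO libraries, with 36 tags (25.2 to 49.8) and 34 (23.5 to 47.5), and in neither WT library. At the depth of WT it would have been 44.2 tags where 27 were needed. Conversely a region in intron 1 of PARP9 was in both WT lists (31 and 38 tags) and in neither FLI1-KO list, where 25.3 tags against 17 needed and 30.2 against 25 needed would have been reached.

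Neighbouring chromatin also differed between genotypes. Within 5 Mb of the chromosome 3 genes the median log2 ratio of sgFLI1 to WT over shared regions, centred on the genome, was 0.17, and with IFN-γ it was 0.16. Around PARP12 and ZC3HAV1 it was 0.40 and 0.37 untreated and 0.26 and 0.26 treated, and around PARP10 0.04 in both. Whole chromosomes 3, 7 and 8 lay between 0.02 and 0.07. The part of these surroundings in the FLI1-KO to WT ratios above was not tested. For the IFN-γ ratios within a genotype the same medians lay between -0.05 and 0.03.

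Other genes of the ADP-ribosylation system were looked at as a list of 23, made of further PARPs, enzymes that remove ADP-ribose, deltex ligases and the ZC3HAV1 cofactors KHNYN and TRIM25. A peak within 3 kb of a TSS was listed for 20 and 19 of them in untreated and treated WT cells and for 18 and 17 in FLI1-KO cells. With IFN-γ in WT cells 3 of 23 had a gained promoter region, against 12.0% of all protein-coding genes, and in FLI1-KO cells 1 of 23, against 7.69%. The 3 were PARP8 (18 tags, 4 bp from a TSS), PARP16 (54 tags over a background of 22.5, 2761 bp from a TSS) and MACROD1, which encodes a hydrolase of mono-ADP-ribose (regions of 17 and 16 tags). The one in FLI1-KO cells was at DTX4, a deltex ligase gene (37 tags). Lost promoter regions were found at 1 gene in WT, against 7.02%, and at 5 in FLI1-KO cells, against 10.5%.

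The lists as a whole held 59629 to 67470 peaks, with a library background of 1.75 to 2.20 tags, a tag density of 6.86 to 8.84 tags per kb and a lowest listed pileup of 7 or 8 tags. Of 5 epithelial marker genes 4 (KRT5, TP63, CDH1 and EPCAM) had a promoter peak in every list and KRT14 had none in any. Lymphoid markers had a promoter peak at 0 to 2 of 3 genes, fibroblast markers at 1 of 2 in each library and endothelial markers at 0 to 2 of 2.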

How the data were processed

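Samples were grouped by the genotype and treatment in the GEO labels, 1 ATAC-seq library in each of 4 groups. Per the labels and the study's methods, the authors trimmed reads (Trimmomatic), aligned them to GRCh38 (Bowtie2 2.3.4.1), removed alignments with MAPQ under 30 and duplicates, called peaks (MACS2 2.1.2, q cutoff 0.05) and kept those with an irreproducible discovery rate (IDR) of at most 0.05. Whether a deposited list is before or after the IDR filter and holds 1 replicate or several pooled, and correction of tag positions for the transposase, are not given in the sources used here. Each deposited list gives a score, a fold enrichment (a ratio) and −log10 p and −log10 q values per peak. The score was not used.

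Summit pileups and local backgrounds were recovered from the deposited fold, (pileup + 1) / (background + 1), and the deposited −log10 p, a Poisson tail. Both were satisfied for 100% of peaks. The lowest background divided by the shortest peak length gave tags per kb, by which pileups were normalised. PCR reads carry no molecular identifiers, so intervals (Wilson for shares, exact Poisson for pileups, Clopper-Pearson for ratios of 2 counts) cover counting error only. A pileup was called strong enough for another library when, scaled to its depth, it exceeded the least significant −log10 p listed there. The counting interval of the pileup was not used in this step. Peaks sharing at least 1 bp were called shared, and 1.5-fold was the limit used for shared regions.

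Genes and TSSs came from GENCODE release 44, promoter sequences from RefSeq (GRCh38.p14) and other bases from GRCh38. A promoter region was the one over the canonical TSS or with a summit within 1000 bp of it. The genes, lists and motifs were chosen with earlier results of these data known. Named genes were the 7 members, listed genes with a gained promoter region, and genes whose start lay in a member window. The steps were tested on simulated data. No test between groups was run. Python 3.11.15, numpy 2.4.6, pandas 2.3.3, scipy 1.17.1, matplotlib 3.10.9 and samtools 1.23.1 were used. Alternatives were stricter −log10 q limits, other windows, other definitions of overlap, other motif and TSS distances and 2 other scalings.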

Additional observations from a re-analysis of the deposited data

Results flagged for a closer look

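Some values went one way with IFN-γ in WT cells and the other way in FLI1-KO cells. With 1 library per group, none of these differences between genotypes was tested. The number of peaks at the 7 genes changed by 7 (WT) and -2 (FLI1-KO), that at PARP14 by 2 and -1, and that at PARP10 by 1 and -1. The whole lists moved in the same directions, from 59629 to 67470 peaks in WT and from 63203 to 59923 in FLI1-KO cells. The opposite signs of these counts are thus not particular to the 7 genes.

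Of the normalised pileup ratios, that of the PARP15 intron 2 region was 4.15 in WT and 0.870 in FLI1-KO cells, that of the PARP14 promoter 1.58 and 0.856, and that of the ZC3HAV1 promoter 1.46 and 0.838. In WT these 3 had counting intervals above 1, and in FLI1-KO cells all 3 intervals held 1. At the other 5 regions the interval held 1 in both genotypes. The ratios were 1.01 and 0.792 in intron 10 of PARP9, 1.22 and 0.852 in exon 5 of DTX3L, and 0.910 and 1.19 at -8613 bp from ZC3HAV1. At -3680 bp from PARP10, in a region over the canonical start of GRINA, they were 0.889 and 1.03. At -17160 bp from PARP10 they were 1.45 and 0.743. The median over all shared regions was below 1 in both pairs, as given above.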

How the results depend on the processing

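Of 113 values recomputed under the alternatives, 93 held (counts to 1.5 times, shares and ratios to their interval), and 20 did not. A count that held could still rest on other regions. At −log10 q of at least 10, the region gained in FLI1-KO cells was in intron 9 of PARP15 and no longer in PARP10. The region lost in WT was then in intron 9 of PARP10 and no longer at -18802 bp. All 36 recomputed promoter ratios stayed inside the reported intervals, and 2 of them, both for PARP12 in sgFLI1 to WT, passed to the other side of 1 (0.950 and 0.964). This is a weak check, because the intervals are wide and 1 of the 2 scalings multiplies all ratios of a pair by the same factor. The shares over all peaks and genes were not recomputed under the alternatives. The counts that follow therefore cannot be read as above or below background. With −log10 q of at least 5 in every list, 5 regions at the 7 genes were gained and 2 lost in WT. Of the gained ones 4 had no sgFLI1-IFN-γ peak, and in FLI1-KO cells 0 were gained (at 0 genes) and 1 was lost. With the same limit only for the list that held the peak, 5 were gained in WT, 4 of these had no sgFLI1-IFN-γ peak, and 0 were gained (at 0 genes) and 1 lost in FLI1-KO cells. With −log10 q of at least 10 in every list, WT-IFN-γ had 16 peaks at the 7 genes, 3 regions were gained in WT and 0 of these lacked an sgFLI1-IFN-γ peak, and 1 was lost in FLI1-KO cells. With 50 kb upstream, 4 regions were gained in FLI1-KO cells, at 3 genes. With gained regions up to 10 kb from a TSS, 8 of the 23 other genes had one in WT and 2 in FLI1-KO cells, and up to 1 kb 0 did in FLI1-KO cells. The share of all protein-coding genes was not recomputed at these distances, and a wider limit takes in more regions at any gene. Of the 8 gained regions, 5 had a −log10 q of at least 5 and only the PARP10 promoter one of at least 10. The other 2 regions gained at the limit of 10 were those of PARP15 in introns 2 and 9, whose WT peaks (8.64 and 9.32) fell below it. No paired analysis was possible because each group had 1 library and no test was run. For the same reason no library could be left out.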
